A study of Mus musculus with 14 samples.

Results

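A set of 9 genes that code for RNA polymerase II elongation factors was followed through mouse sperm development with and without Setd2. They were chosen by name, with earlier results of these data known: Supt6h, Iws1, Paf1, Ctr9, Rtf1, Leo1, Cdc73, Supt16h and Ssrp1. All 9 were found among the 20626 genes of the RNA-seq tables, which list Supt6h as Supt6 and Supt16h as Supt16, and those listed symbols are used here. RNA-seq came from pachytene/diplotene spermatocytes (PD), which are cells in meiosis, and from round spermatids (RS), their haploid descendants. Both were sorted by FACS on DNA-dye staining (a Hoechst dye and propidium iodide) from testes of adult C57BL/6J mice that were WT or Setd2KO. Each of the 4 groups had 2 RNA-seq libraries and 1 peak list for H3K36me3, the histone H3 lysine 36 trimethylation that SETD2 places. The labels do not give the Cre driver, the deleted part of Setd2 or the number of animals behind a library. The p-values therefore measure only the spread between libraries, which may be technical.

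Elongation factors travel with RNA polymerase II through gene bodies and open, pass and rebuild the nucleosomes on its way. SPT6 is a histone chaperone bound to the polymerase, and IWS1 binds SPT6 and helps bring SETD2 to transcribed genes. FACT, the dimer of SUPT16 and SSRP1, handles histones H2A and H2B, and the PAF1 complex (PAF1, CTR9, LEO1, CDC73, with RTF1 more loosely held in mammals) promotes elongation and the ubiquitination of H2B. In the testis these general factors work in spermatocytes, which transcribe much of the genome, and in round spermatids, which later exchange their histones for protamines.

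The libraries held 50840000 to 84930000 mapped fragments, as recovered from the steps of the FPKM values in short genes. Replicates of a group had a Pearson r of 0.992 to 0.995 across 11452 genes, which are not independent replicates. Members had 704 reads (Rtf1 in PD WT replicate 2, with an exact Poisson 95% interval of 653 to 758 that covers counting error only) to 12050 reads (Supt16 in PD Setd2KO replicate 2). Setd2 itself was at 21.2 and 19.1 FPKM in PD WT and at 21.03 and 21.4 in PD Setd2KO, then at 5.24 and 5.58 in the RS WT libraries and at 12.1 and 8.67 in RS Setd2KO. A whole-gene value does not check a deletion within the gene. The 10 spermatocyte markers summed to 1054 to 1396 FPKM in PD and 563 to 766 in RS, and the 10 round spermatid markers to 26.7 to 157 in PD and 998 to 1591 in RS. No marker of the 8 cell type lists was at 0 in every library.

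Promoters are shown for the 3 chaperone genes that were lower in round spermatids and for Paf1, which differed both by cell type and by genotype. They were taken from RefSeq on GRCm38.p6, from 250 bases before to 50 after an annotated start. Capitals mark matches on either strand to the GC box GGGCGG, the CCAAT box CCAAT, the ETS motif CCGGAAG and the CRE core TGACG.
Supt16 (14:52197190-52197489, minus strand): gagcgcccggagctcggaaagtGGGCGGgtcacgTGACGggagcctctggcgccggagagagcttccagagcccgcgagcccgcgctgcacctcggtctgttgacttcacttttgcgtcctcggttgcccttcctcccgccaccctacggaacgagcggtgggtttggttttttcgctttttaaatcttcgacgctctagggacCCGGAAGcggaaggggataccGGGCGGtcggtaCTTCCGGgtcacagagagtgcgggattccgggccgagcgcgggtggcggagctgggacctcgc
Supt6 (11:78245654-78245953, minus strand): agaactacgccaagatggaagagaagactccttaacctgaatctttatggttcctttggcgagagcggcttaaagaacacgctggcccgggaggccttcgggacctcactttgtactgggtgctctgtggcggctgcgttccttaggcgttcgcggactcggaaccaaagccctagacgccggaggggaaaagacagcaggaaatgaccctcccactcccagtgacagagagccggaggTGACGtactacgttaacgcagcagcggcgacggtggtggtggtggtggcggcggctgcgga
Ssrp1, first start (2:85036870-85037169, plus strand): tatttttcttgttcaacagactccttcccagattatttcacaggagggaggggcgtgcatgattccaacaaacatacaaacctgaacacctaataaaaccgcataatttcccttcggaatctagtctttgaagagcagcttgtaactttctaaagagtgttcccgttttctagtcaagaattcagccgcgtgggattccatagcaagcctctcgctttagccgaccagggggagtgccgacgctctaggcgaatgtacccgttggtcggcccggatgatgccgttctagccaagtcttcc
Ssrp1, second start (2:85037201-85037500, plus strand): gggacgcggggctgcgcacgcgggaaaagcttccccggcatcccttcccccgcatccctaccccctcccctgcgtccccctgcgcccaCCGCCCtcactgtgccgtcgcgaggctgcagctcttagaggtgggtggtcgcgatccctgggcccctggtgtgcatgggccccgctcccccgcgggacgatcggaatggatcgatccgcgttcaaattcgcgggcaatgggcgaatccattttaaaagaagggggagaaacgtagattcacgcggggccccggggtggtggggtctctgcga
Paf1 (7:28392746-28393045, plus strand): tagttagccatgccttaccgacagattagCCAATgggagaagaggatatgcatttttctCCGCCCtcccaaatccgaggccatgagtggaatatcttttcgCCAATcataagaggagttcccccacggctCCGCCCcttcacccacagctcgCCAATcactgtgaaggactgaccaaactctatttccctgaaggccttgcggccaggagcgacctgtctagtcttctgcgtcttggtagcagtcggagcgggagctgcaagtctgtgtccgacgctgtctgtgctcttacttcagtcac

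Of the 7 members whose promoters were searched (Supt6, Supt16, Ssrp1, Paf1, Rtf1, Leo1 and Cdc73), 6 held a GC box, Ssrp1 at its second start only. Of all 32851 promoters of this length 35.7% hold it. Members are counted per gene and these background shares are per promoter. Paf1 was the 1 member with CCAAT (37.4% of all promoters), with 3 copies whose first bases lie at -221, -149 and -98 from the start. Supt16 and Supt6 each held TGACG (20.8% of all promoters), and Supt16 and Rtf1 held CCGGAAG (8.86%). Rtf1 also held the NRF1 motif (4.6%). TATAAA (13.6%), AACNGTT (the MYB core, 4.45%) and TGACGTCA (the full CRE, which contains that core; 1.79%) were in none of the 7. Every member promoter was richer in CpG than the median promoter, with 14 to 54 CpG against 7. A match is a description of the letters in the window.

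In mm9, the build of the deposited tables, the members lay on 7 chromosomes. The SPT6 partners were Supt6 at 11:78020251-78059205 (minus strand) and Iws1 at 18:32227388-32263985 (plus strand), and FACT was Supt16 at 14:52780094-52816914 (minus strand) and Ssrp1 at 2:84877608-84887271 (plus strand). Of the PAF1 complex, Paf1 at 7:29178015-29184402 was the shortest gene at 6.4 kb and Cdc73 at 1:145450406-145550023 (minus strand) the longest at 99.6 kb. Ctr9 lay at 7:118172465-118199891, Rtf1 at 2:119500804-119561143 and Leo1 at 9:75289331-75314239, all on the plus strand like Paf1. B3galt2 lies on the other strand within Cdc73, at 0.711 to 1.58 FPKM, and Rpgrip1 on the other strand shares 921 bases with Supt16, at 27.5 to 37.6 FPKM. Whether counting used the strand is not given in the sources used here, so reads in the shared bases cannot be told apart.

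On the FPKM scale, which is per length and so allows genes to be compared, FACT stood at the top in PD WT. Supt16 had a mean of 33.3 ± 0.648 FPKM and Ssrp1 of 30.9 ± 3.48 (SD, n = 2), and their libraries overlapped. Ctr9 followed at 21.8 ± 4.19, above Leo1, Supt6 and Paf1, which overlapped their neighbours at 17.1, 16.5 and 15.5. Iws1 at 7.64, Rtf1 at 3.04 and Cdc73 at 2.65 came last, without overlap. In RS WT the order was another: Paf1 led at 30.98 ± 2.85, then Leo1 at 20.4 ± 0.724, Ssrp1 and Ctr9 (overlapping, 17.4 and 17.2), Supt16 and Supt6 (overlapping, 10.2 and 8.54), Iws1 and Rtf1 (overlapping, 7.07 and 6.76) and Cdc73 at 4.18.

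**Figure D1:**
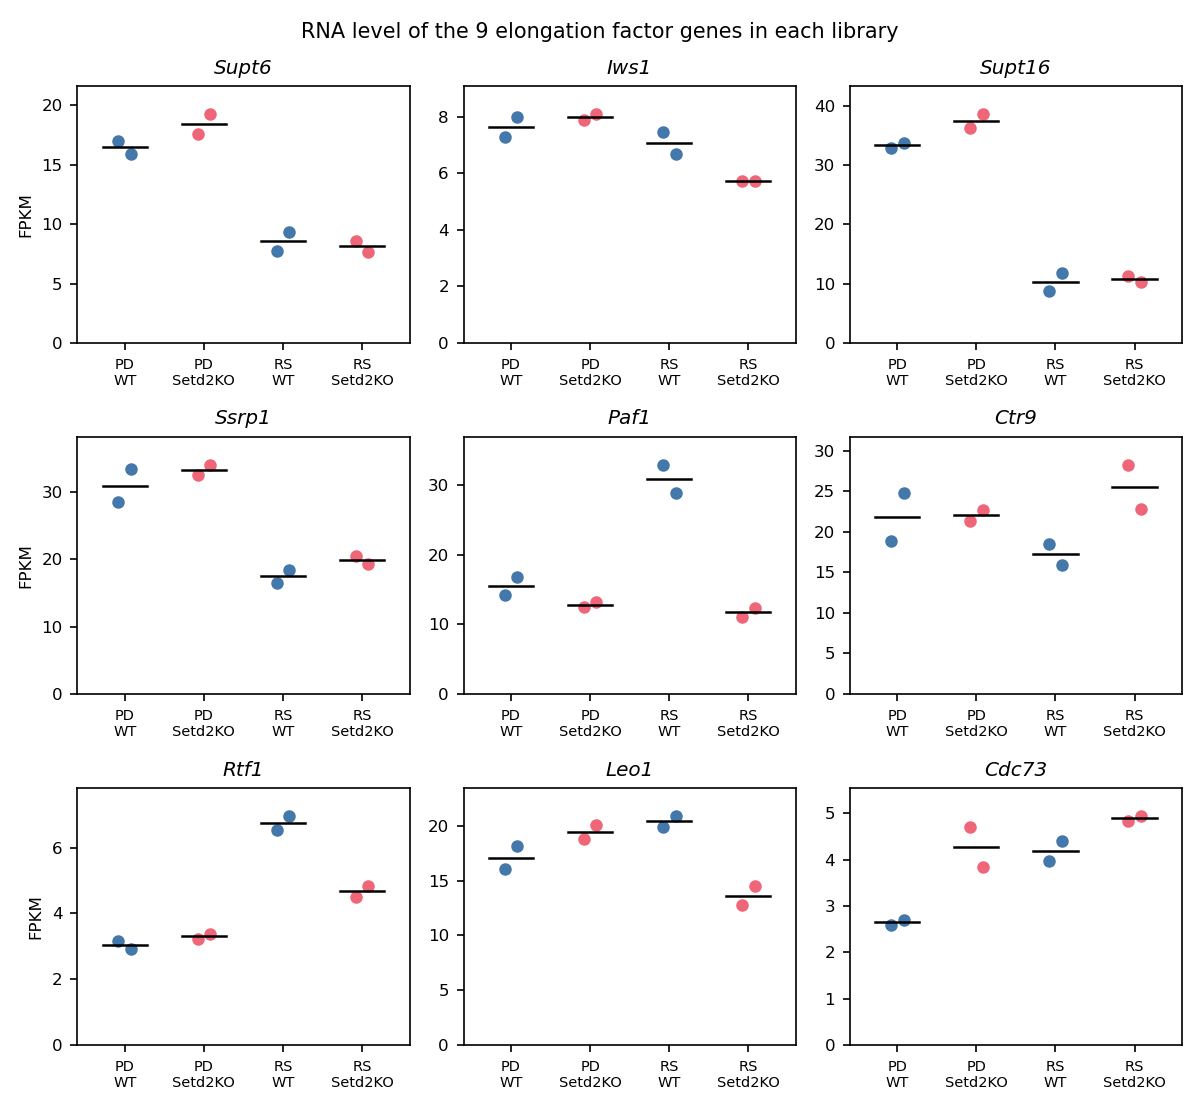
RNA level (y axis, FPKM, from 0, own scale per gene) of the 9 genes in each group (x axis); points are the 2 libraries of a group and bars their mean. Paf1 is at 33.0 and 29.0 FPKM in RS WT and between 11.1 and 16.8 in the other 6 libraries, and Supt16 is between 32.8 and 38.7 in PD and between 8.72 and 11.8 in RS.

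The histone chaperones were lower in round spermatids than in spermatocytes, while 3 of the 5 PAF1 complex genes were higher. Between RS WT and PD WT, 6 of the 9 members changed in the limma fit over 11452 genes (Benjamini-Hochberg adjusted p under 0.05), 3 lower and 3 higher. Most genes changed here: 82.7% were called, 36% higher and 46.7% lower, so a share of 6 in 9 is not above the background. Libraries of the 2 groups did not overlap for 4 members higher in RS WT (39.0% of all genes) and for 4 lower (50.6%). Changes are given on the log2(FPKM + 1) scale, and the median of all genes was -0.21, so values relative to it are added. In these bulk samples, fewer cells of a type and less RNA per cell cannot be told apart.

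Supt16 was at 32.8 and 33.7 FPKM in PD WT and at 8.72 and 11.8 in RS WT. Both round spermatid libraries lay far below both spermatocyte libraries. The log2 change was -1.62 ± 0.15 (SE; limma, adjusted p = 9.82e-07; -1.41 relative to the median), a 3.08-fold lower FPKM + 1. Ssrp1, its partner, was at 28.4 and 33.3 in PD WT and at 16.5 and 18.4 in RS WT, again without overlap. It changed less than Supt16, by -0.79 ± 0.14 (adjusted p = 0.000209; -0.58 relative). The ratio of Supt16 to Ssrp1 was accordingly 1.01 to 1.15 in all 4 PD libraries and 0.529 to 0.640 in all 4 RS libraries.

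Supt6 was at 17.0 and 15.9 FPKM in PD WT and at 7.77 and 9.30 in RS WT. The groups did not overlap, and the log2 change was -0.88 ± 0.13 (limma, adjusted p = 7.32e-05; -0.66 relative). Iws1, its binding partner, was at 7.29 and 8.0 in PD WT and at 7.44 and 6.69 in RS WT, which overlap. Its change of -0.10 had a 95% interval of -0.36 to 0.16 (adjusted p = 0.436) and did not pass.

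Paf1, which gives its complex its name, was at 14.2 and 16.8 FPKM in PD WT and at 33.0 and 29.0 in RS WT. It was higher in both round spermatid libraries, by 0.96 ± 0.14 on the log2 scale (limma, adjusted p = 4.49e-05; 1.17 relative). Rtf1, the subunit that stimulates H2B ubiquitination, was at 3.16 and 2.92 in PD WT and at 6.54 and 6.97 in RS WT. It rose by 0.94 ± 0.11 (adjusted p = 7.22e-06; 1.15 relative). Cdc73, which codes for parafibromin, was at 2.60 and 2.71 in PD WT and at 3.96 and 4.39 in RS WT. Its rise of 0.50 ± 0.12 passed (adjusted p = 0.00189; 0.71 relative). Leo1 had a log2 change of 0.25 (adjusted p = 0.0998; interval -0.04 to 0.54) and Ctr9, the scaffold of the complex, of -0.31 (adjusted p = 0.0984; interval -0.67 to 0.05), and neither passed. Of the 5 genes of this complex, 3 were thus called higher and 2 did not pass as deposited. Ctr9 was called lower with upper-quartile scaling (limma, adjusted p = 0.0237) and with quantile normalization (0.0173). Leo1 was called higher with libraries centred on their medians (0.027). Over 19 alternatives the change ran from -0.50 to -0.12 for Ctr9 and from 0.12 to 0.33 for Leo1. Both also moved with single libraries, to -0.50 for Ctr9 without PD WT replicate 1 and to 0.33 for Leo1 without PD WT replicate 2. The 6 calls held under each of the alternatives in which the gene was tested.

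Without Setd2 the 3 chaperone genes were again lower in round spermatids, while of the PAF1 complex Rtf1 alone was called higher as deposited. Between RS Setd2KO and PD Setd2KO, 6 members changed, 5 lower and 1 higher, against 82.7% of all genes called (34.2% higher, 48.5% lower) and a median of all genes of -0.27. Libraries did not overlap for 6 members lower (55.0% of all genes) and 3 higher (39.6%). Supt16 changed by -1.71 ± 0.15 (limma, adjusted p = 6.83e-07; -1.44 relative), from 36.2 and 38.7 FPKM in PD Setd2KO to 11.2 and 10.3 in RS Setd2KO. Supt6 changed by -1.09 ± 0.13 (adjusted p = 1.21e-05; -0.82 relative) and Ssrp1 by -0.71 ± 0.14 (adjusted p = 0.000469; -0.44 relative). The difference between these changes in Setd2KO and in WT had intervals of -0.55 to 0.38 for Supt16, -0.62 to 0.20 for Supt6 and -0.35 to 0.50 for Ssrp1, and none passed.

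Rtf1 was higher in RS Setd2KO than in PD Setd2KO, by 0.40 ± 0.11 (limma, adjusted p = 0.0052; 0.67 relative). Leo1, higher in both RS WT libraries than in PD WT, was lower in RS Setd2KO, by -0.48 ± 0.13 (adjusted p = 0.00486; -0.22 relative). That call was lost without RS Setd2KO replicate 1 (adjusted p = 0.0516) and with libraries centred on their medians (0.144), within a range of 0.0021 to 0.144 over 19 alternatives. Iws1 was lower by -0.42 ± 0.12 (adjusted p = 0.0055; -0.15 relative), a call lost with quantile normalization (0.212) and with centring (0.325), within 0.00257 to 0.325. Paf1 had a change of -0.12 (adjusted p = 0.43), which turned positive under both of those scalings, Ctr9 of 0.20 (0.276) and Cdc73 of 0.17 (0.207), and none passed as deposited. Cdc73 was called higher with quantile normalization (0.48, limma adjusted p = 0.00193) and with centring (0.47, 0.00225). Ctr9 was called higher with centring (0.51, 0.00875).

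**Figure D2:**
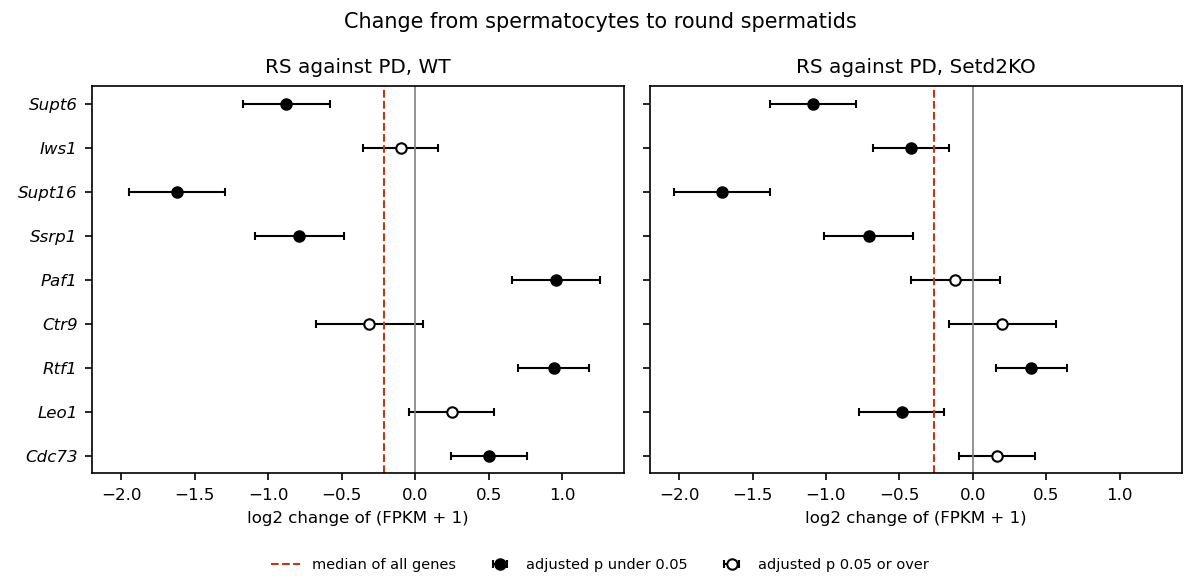
Difference between RS and PD for each gene (x axis, log2 change of FPKM + 1, with 95% intervals) in WT and in Setd2KO; filled points have an adjusted p under 0.05 and the dashed line is the median of all genes. Supt16 is at -1.62 and -1.71, while Paf1 is at 0.96 in WT and at -0.12 in Setd2KO.

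Setd2 loss in round spermatids went with lower Paf1, Leo1 and Rtf1 and higher Ctr9. Thus 4 of 9 members changed, 1 higher and 3 lower, where 42.7% of all genes were called (20.9% higher, 21.8% lower), a share close to the background. All 4 belong to the PAF1 complex. The libraries of the genotypes did not overlap for 3 members higher (40.4% of all genes) and 4 lower (37.7%). The median of all genes was 0.02. This comparison and that of RS with PD in WT share the RS WT libraries, so the rise of Paf1 in one and its fall in the other are not independent.

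Paf1 was at 33.0 and 29.0 FPKM in the RS WT libraries and at 11.1 and 12.4 in RS Setd2KO. Both Setd2KO libraries were below both WT libraries by a wide margin and slightly below the range of PD WT. The log2 change was -1.33 ± 0.14 (SE; limma, adjusted p = 3.36e-05), a 2.51-fold lower FPKM + 1, and 1.54% of the tested genes had a change as low or lower. It was called under all 19 alternatives, with changes of -1.42 to -1.10. Its reads numbered 5473 and 2876 in the RS WT libraries and 1262 and 1594 in RS Setd2KO.

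Leo1 was at 19.9 and 20.9 FPKM in the RS WT libraries and at 12.8 and 14.5 in RS Setd2KO. It fell by 0.55 on the log2 scale (SE 0.13; limma, adjusted p = 0.0061), with no overlap. Rtf1 was at 6.54 and 6.97 in the RS WT libraries and at 4.50 and 4.84 in RS Setd2KO, and fell by 0.45 (SE 0.11; adjusted p = 0.0067), also with no overlap. Ctr9 was at 18.5 and 15.97 in the RS WT libraries and at 28.3 and 22.9 in RS Setd2KO. Both Setd2KO libraries were above WT, and the rise was 0.54 ± 0.16 (adjusted p = 0.0216). These 3 calls were lost in some fits with 1 library left out, which leave 1 library in a group. Without RS Setd2KO replicate 1 the change was -0.47 for Leo1 (adjusted p = 0.0667), -0.41 for Rtf1 (0.0547) and 0.39 for Ctr9 (0.179). Without RS WT replicate 2 it was -0.41 for Rtf1 (0.0566) and 0.44 for Ctr9 (0.139). Over 19 alternatives the adjusted p ran from 0.00186 to 0.0667 for Leo1, from 0.00421 to 0.0566 for Rtf1 and from 0.00889 to 0.179 for Ctr9, with the direction kept in each.

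As Paf1 fell and Ctr9 rose, the ratio of Paf1 to Ctr9 went from 1.78 and 1.81 in RS WT to 0.394 and 0.541 in RS Setd2KO. It was 0.678 and 0.756 in PD WT and 0.583 in both PD Setd2KO libraries. The other 5 members did not pass. Cdc73 was at 3.96 and 4.39 FPKM in the RS WT libraries and at 4.84 and 4.95 in RS Setd2KO (log2 change 0.19, interval -0.07 to 0.45, adjusted p = 0.218). Iws1 was at 7.44 and 6.69 in the RS WT libraries and at 5.72 in both RS Setd2KO libraries (-0.26, interval -0.52 to -0.01, adjusted p = 0.0921). The intervals of the chaperones were -0.25 to 0.41 for Supt16, -0.12 to 0.48 for Ssrp1 and -0.35 to 0.23 for Supt6, around changes of 0.08, 0.18 and -0.06.

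Markers of other stages and cells moved between the same RS libraries. The sum of the 10 elongating spermatid markers was 5670 FPKM in both RS WT libraries and 2443 and 2557 in RS Setd2KO, with 9 of 10 lower without overlap. The round spermatid markers summed to 1478 to 1591 in the RS WT libraries and 998 to 1314 in RS Setd2KO (7 of 10 lower), and the spermatocyte markers to 563 to 606 and 755 to 766 (7 of 10 higher). The 8 peritubular myoid and stromal markers summed to 2.64 to 5.21 and 20.0 to 20.6 (7 of 8 higher), and the 10 Sertoli cell markers to 14.9 to 16.4 and 22.3 to 23.0 (7 of 10 higher). The 6 Leydig cell markers summed to 4.79 to 9.28 and 10 to 14.2 (5 of 6 higher). The 10 spermatogonia markers were mixed (4 higher, 4 lower), at 9.69 to 11.1 and 8.37 to 8.41. So were the 7 macrophage and blood markers (1 higher, 1 lower), at 2.46 to 4.64 and 3.33 to 3.73. The part of other stages and cells in the results for Paf1, Leo1, Rtf1 and Ctr9 was not tested.

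**Figure D3:**
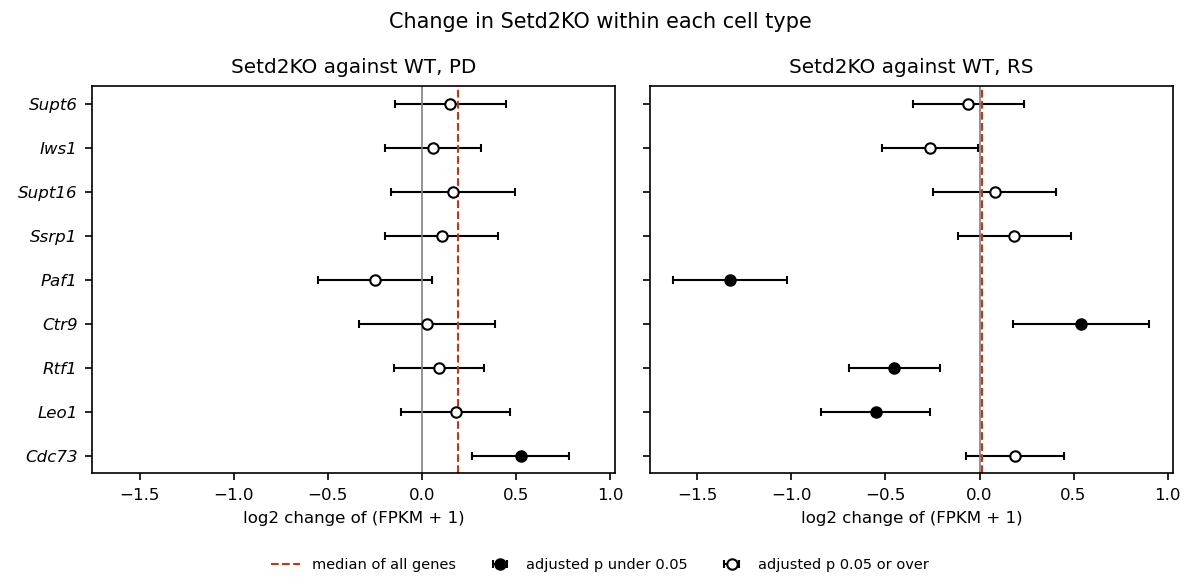
Difference between Setd2KO and WT for each gene (x axis, log2 change of FPKM + 1, with 95% intervals) in PD and in RS; filled points have an adjusted p under 0.05 and the dashed line is the median of all genes. Paf1 is at -1.33 in RS and at -0.25 in PD, and in PD the filled point is that of Cdc73, at 0.53.

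In spermatocytes 1 member, Cdc73, was higher in Setd2KO and none was lower. Of all genes 36.1% were called (29.8% higher, 6.30% lower), and the median of all genes was 0.19. The libraries did not overlap for 5 members higher (56.6% of all genes) and 1 lower, Paf1 (14.5%). Cdc73 was at 2.60 and 2.71 FPKM in PD WT and at 4.70 and 3.85 in PD Setd2KO, both above WT. Its log2 change was 0.53 ± 0.12 (limma, adjusted p = 0.00619; 0.33 relative to the median). The call was lost without PD Setd2KO replicate 1 (adjusted p = 0.0696), with quantile normalization (change 0.28, 0.0760) and with centring on medians (change 0.30, 0.0680), and 15 of 18 alternatives kept it, within 0.00623 to 0.0760.

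Paf1 was at 14.2 and 16.8 FPKM in PD WT and at 12.5 and 13.2 in PD Setd2KO, both below WT. Its change of -0.25 (interval -0.55 to 0.05; -0.44 relative) did not pass (limma, adjusted p = 0.175). It passed with upper-quartile scaling (-0.38, adjusted p = 0.018), with quantile normalization (-0.41, 0.0133) and with centring on medians (-0.47, 0.0137), within 0.0133 to 0.467 over 19 alternatives. The other 7 had changes of 0.03 (Ctr9) to 0.18 (Leo1) and adjusted p of 0.304 to 0.907, and each turned negative under 1 or more scalings.

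The split of calls in this comparison moved with the scaling. Of the called genes 82.5% were higher as deposited, 66.3% with upper-quartile scaling, 45.7% with quantile normalization and 42.5% with centring. Spermatid RNA also differed between the same libraries. For this, 517 genes were taken that had at least 20 FPKM in RS WT and were at least 20-fold lower in PD WT. Over these, PD WT held 1.92% and 2.77% of the RS level of its genotype and PD Setd2KO 13.1% and 7.67%. As the rule used WT values, it kept the PD WT share low in advance, and the 2 genotypes are not on equal terms. All 10 round spermatid markers were higher in PD Setd2KO, with sums of 26.7 to 40.9 FPKM in PD WT and 86.1 to 157 in PD Setd2KO. The 10 elongating spermatid markers were mixed (5 higher, 4 lower), with sums of 524 to 616 FPKM in PD WT and 473 to 566 in PD Setd2KO. Also mixed were the 8 peritubular myoid and stromal markers (4 higher, 2 lower), at 4.6 to 5.1 and 5.7 to 8.1. The 7 macrophage and blood markers (2 higher, 2 lower) were at 2.5 to 3.2 and 2.1 to 2.2. The 10 spermatogonia markers summed to 25.3 to 27.0 and 43.3 to 54.6 (9 of 10 higher), the 10 Sertoli cell markers to 8.27 to 8.54 and 13.1 to 14.04 (8 of 10 higher), the 6 Leydig cell markers to 4.01 to 4.22 and 5.42 to 7.18 (5 of 6 higher), and the 10 spermatocyte markers to 1054 to 1179 and 1345 to 1396 (7 of 10 higher). Cdc73 is higher in RS than in PD in WT. Its call was kept in a fit with spermatid RNA subtracted by the share in the 517 genes. That share rests on genes chosen by WT values, and RNA of the other cell types was not subtracted. The part of other cells in the result for Cdc73 was not tested.

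The genotype difference itself differed between the cell types for Paf1, Leo1 and Rtf1. For these 3 members the effect in RS minus the effect in PD passed, all lower, where 35.1% of all genes passed (7.76% higher, 27.3% lower) around a median of -0.16. It was -1.08 ± 0.19 for Paf1 (limma, adjusted p = 0.00195; -0.92 relative), -0.73 ± 0.19 for Leo1 (adjusted p = 0.0108; -0.58 relative) and -0.54 ± 0.15 for Rtf1 (adjusted p = 0.0184; -0.39 relative). Paf1 passed under all 18 alternatives. Leo1 was lost without PD Setd2KO replicate 2 (adjusted p = 0.0516) and without RS Setd2KO replicate 1 (0.0546), within 0.00806 to 0.0546.

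Rtf1 lost the difference without PD Setd2KO replicate 2 (0.073), RS WT replicate 2 (0.0754) or RS Setd2KO replicate 1 (0.0683), and with upper-quartile scaling (0.0622), quantile normalization (0.186) or centring (0.166), within 0.0143 to 0.186. Ctr9 had the other sign, at 0.51 (adjusted p = 0.112; interval -0.00055 to 1.02), and passed in 4 of 18 alternatives. Of all genes that passed, 22.1% were higher as deposited, 41.5% with upper-quartile scaling, 52.9% with quantile normalization and 58.5% with centring.

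H3K36me3 lay over all 9 members in PD WT and over none in PD Setd2KO. The mark is laid down over transcribed gene bodies by SETD2. Cover here is the share of a gene's bases within the authors' peaks, with 1 list per group, so there is no replicate check and the depth behind the lists is unknown. In PD WT a peak touched 9 of 9 members (75.9% of 10660 autosomal tested genes), and each was at least 50% covered (57.5%). In RS WT 7 of 9 were touched (73.7%) and 5 of 9 at least 50% covered (54.1%). In PD Setd2KO 0 of 9 were touched (2.09%; at least 50% covered, 0.0281%), and in RS Setd2KO 1 of 9 (5.52%; at least 50% covered, 0.00%). The median cover of members was 95.9% in PD WT and 81.4% in RS WT, and of all autosomal tested genes 68.8% and 62.3%.

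The chaperone genes Supt6 and Supt16 went from near-full or full cover to none between the WT lists. Supt6 was 100% covered in PD WT by 1 peak of 41.9 kb (11:78017305-78059213), whose score of 73.42 is close to the lowest score of 50 in the list, and by 0% where a score of at least 100 was asked. That peak also runs over Proca1. Supt16 was 98.7% covered in PD WT by 5 peaks with scores of 352.85 to 1805.29, the last of which (14:52755893-52785348) runs on over Rpgrip1. In RS WT both were at 0%. Ssrp1, the partner of Supt16, kept its cover, with 92.3% in PD WT and 95.6% in RS WT.

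Iws1 kept the mark at its 3′ end. It was 95.9% covered in PD WT and 18.9% in RS WT, where the cover lay in parts 9 and 10 of 10 equal parts of the gene, under a peak that starts within the gene and ends beyond it. Rtf1 had a like pattern at its other end. Its cover was 66.0% in PD WT, with parts 7 and 8 at 0, and 49.3% in RS WT, all in parts 1 to 5. In RS Setd2KO it held the single peak found in any member, of 177 bases with a score of 51.18 (2:119544871-119545047), which covers 0.293% of the gene.

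The other 4 PAF1 complex genes had like cover in both WT lists. Paf1 was 78.6% covered in PD WT and 81.4% in RS WT, under peaks that run on over Samd4b and leave parts 1 and 2 almost bare. Ctr9 was at 98.0% and 99.1%, Leo1 at 96.2% and 99.0%, and Cdc73 at 91.3% in 20 peaks and 98.3% in 5 peaks. Paf1, whose RNA was higher in RS WT, thus had like cover in both lists.

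**Figure D4:**
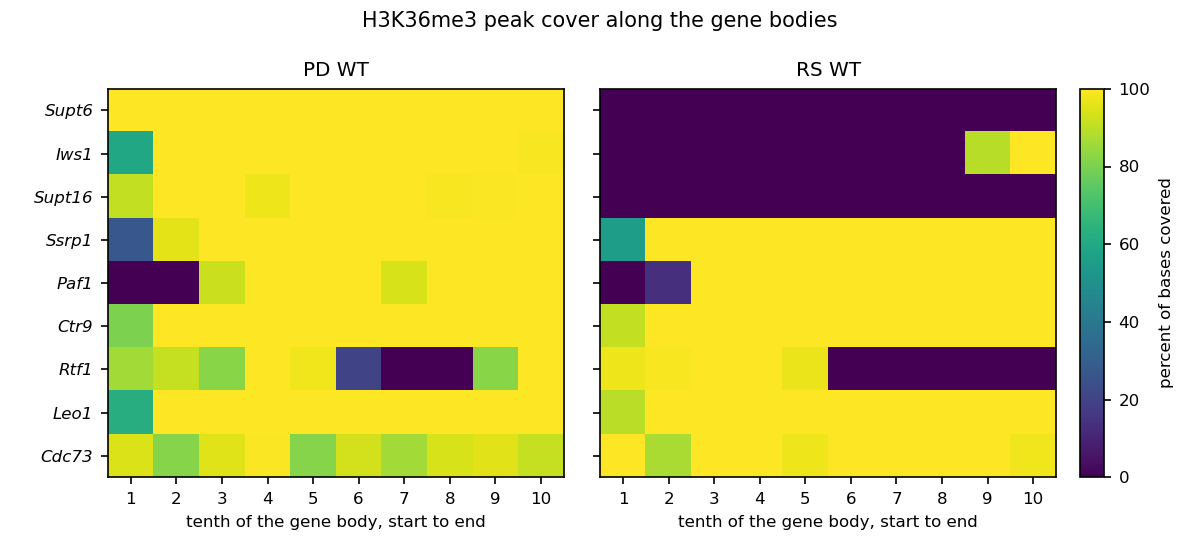
Percent of bases under H3K36me3 peaks (colour, 0 to 100) in each of 10 equal parts of the gene body from start to end (x axis) for the 9 genes, in the PD WT and RS WT peak lists. In RS WT the rows of Supt6 and Supt16 are at 0, Iws1 is covered in parts 9 and 10, and Rtf1 in parts 1 to 5.

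Loss of cover between the WT lists, from at least 50% in PD to 0 in RS, was found for 331 of 6130 genes (5.40%), and Supt6 and Supt16 were 2 of them. Both also had lower RNA in RS WT. Over the 331 genes the median RNA change was -0.65, and 62.5% were called lower. Over the 5355 genes at least 50% covered in both lists, which include Paf1, Ctr9, Leo1, Cdc73 and Ssrp1, the median was -0.60 and 60.5% were called lower. The difference between these 2 sets was not tested. The reverse, from 0 in PD to at least 50% in RS, was found for 75 genes, none of them a member. Over those 75 the median RNA change was -0.24.

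Other genes of transcript elongation were measured in the same libraries. In 10 lists of partner complexes with 74 genes, 69 were tested, and between RS WT and PD WT 17 were higher and 42 lower, with a median change of -0.65 against -0.21 for all genes, of which 36% were called higher and 46.7% lower. The list of RNA polymerase II subunits also holds Rpap2 (-0.65), which codes for an associated protein. In that list 12 of 14 genes were lower, led by Polr2b (-2.73) and Polr2g (-2.26). The pausing factors DSIF and NELF were lower in 5 of 6, led by Nelfcd (-2.46) and Nelfa (-2.13). Wdr61, a further subunit of the PAF1 complex, was lower by -1.68 (limma, adjusted p = 4.31e-07), unlike Paf1, Rtf1 and Cdc73. The histone chaperones and remodellers were lower in 8 of 11, among them Nap1l4 (-2.23) and Asf1b (-2.06), next to Supt6 and FACT.

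Of the super elongation complex 5 of 8 tested genes were higher, led by Ell2 (3.55) and Ell3 (1.71), and 2 lower. Among the higher genes, Ell3, Mllt3 and Eaf2 had means of 0.163, 0.0875 and 0.419 FPKM in PD WT. They passed the filter of 1 FPKM only through RS groups, so they could enter the count only as higher. Of P-TEFb and its regulators 2 of 8 were higher and 5 lower, with the cyclin Ccnt1 at 1.64 and its kinase Cdk9 at -1.94. Among the genes that place or remove ubiquitin on H2B, the E3 ligase Rnf20 was at -2.22 and the E2 enzyme Ube2a at 2.22, with 2 of 7 higher and 1 lower. Ube2a, at 0.096 FPKM in PD WT, also passed the filter only through RS groups. Elongin A (Eloa) was at -2.55, Cdk12 at -0.75 and Cdk13 at -0.84.

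Between RS Setd2KO and RS WT, 13 of the 69 were higher and 16 lower, with a median of 0.02, where 20.9% of all genes were higher and 21.8% lower. The counts over the 69 are close to those shares. The super elongation complex was lower in 4 of 8, led by Ell (-1.27, limma adjusted p = 5.05e-05) and Ell3 (-0.90), and P-TEFb and its regulators in 3 of 8, led by Hexim2 (-1.0) and Cdk9 (-0.77). Mllt3, 1 of the 4 lower super elongation genes, passed the filter of 1 FPKM only through RS WT (mean 1.13). Wdr61 was higher by 0.39 (adjusted p = 0.0458), the direction of Ctr9. Nelfa (0.69), Chd1 (0.96), Nap1l4 (0.75), Eloa (0.65), Polr2h (0.83), Polr2m (0.62), Ube2a (0.71), Cdk13 (0.43) and Ccnk (0.50) were higher, and Nelfe (-0.76) and Usp49 (-0.55) lower.

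Between PD Setd2KO and PD WT, 23 of the 69 were higher and 2 lower (29.8% and 6.30% of all genes), with a median of 0.20 against 0.19 for all genes. Eaf1 (1.31), Ell2 (1.14), Polr2f (0.80) and Polr2m (0.79) led, and Wdr61 was at 0.44 (limma, adjusted p = 0.0323). The effect in RS minus that in PD passed for 1 higher and 19 lower of the 69, where 7.76% of all genes passed higher and 27.3% lower.

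Of the 66 of these genes that were autosomal and tested, a peak touched 63 (95.5%, against 75.9% of all autosomal tested genes) in PD WT and 60 (90.9%, against 73.7%) in RS WT, none in PD Setd2KO and 1, Mllt3, in RS Setd2KO. At least 50% of the gene was covered in PD WT in 57 of the 66. Loss from there to 0 in RS WT, as in Supt6 and Supt16, was seen in 4 of these 57, against 5.40% of all genes so covered in PD WT. These were Ccnt1, Cdk12, Chd1 and Ctdp1, chosen by that count and not by the rule for named genes. Their RNA changes between RS WT and PD WT were 1.64, -0.75, -1.76 and 1.55, in both directions. Nap1l4 had the reverse pattern of cover, with 0% in PD WT and 100% in RS WT, while its RNA was lower in RS WT (-2.23).

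Among themselves the chaperone genes had near-parallel levels over the 8 libraries, with a Pearson r of 0.993 for Supt6 with Supt16, 0.981 for Supt16 with Ssrp1 and 0.960 for Supt6 with Ssrp1. Rtf1 ran against Ssrp1 (r = -0.929) and Paf1 against Ctr9 (r = -0.738). These are descriptions over 8 libraries of 4 groups that share 2 cell types. The tested genes most like the mean profile of the 9 members were Mapk8 (r = 0.989), Pde12 (0.988), 1110059G10Rik (0.987), Cyth3 (0.987) and Zkscan14 (0.987). That mean profile was highest in PD Setd2KO and lowest in RS Setd2KO.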

How the data were processed

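RNA-seq values were used as the authors deposited them, in FPKM per the file headers. The submitters' processing notes name CASAVA, TopHat2, Cufflinks and Cuffdiff, with build mm9 and no versions. Per the labels the RNA was polyadenylated and the kit directional. H3K36me3 peaks came as 1 deposited list per group with a score for each peak, given by the authors, none under 50. For these libraries Bowtie is noted by the submitters beside CASAVA and bedtools, and peak names in the files begin with MACS. Per the labels, spike-in chromatin was included, and whether it scaled the lists is not given in the sources used here. The inputs, listed for PD samples, were not analysed here.

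Listed symbols were matched through RefSeq synonyms where they differed. Library depth was recovered from FPKM steps in genes under 1300 bases (80.6% to 92.8% of checked values whole within 0.003), and each member's reads from its own values. Tested genes had a group mean of 1 FPKM or more in any of 4 groups (11452, all 9 members among them). All 8 libraries entered 1 limma fit (version 3.58.1, R 4.3.3) with an intensity trend on log2(FPKM + 1), 1 mean per group and no covariate, with 4 residual and 6.92 prior degrees of freedom. P-values were Benjamini-Hochberg adjusted over all tested genes and called at 0.05, and intervals are at 95%. Data for the RS comparison were simulated with 11452 genes, of which 200 were changed, a far smaller share than was called in the real comparison. Of genes changed by 0.5 (log2) 32% were recovered, and of those changed by 1 87%, with 6.3% of calls false. Gene body cover was the percent of a gene's interval under peaks (1 base of overlap counts as touched).

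The members and all gene lists were chosen with earlier results of these data known. Beside the members, the text names up to 2 called genes per list with the largest change, Setd2, and the 5 genes most like the members' mean profile. Mllt3 and Eaf2 are named for how they passed the filter, and Rpap2 because it does not code for a subunit. The alternatives were pseudocounts of 0.1 and 5 FPKM, no filter or 5 FPKM, 3 other scalings, no intensity trend, only the compared groups in the fit, a replicate block, spermatid RNA subtracted from PD, each library left out, a peak score of at least 100, gene bodies extended by 2 kb and at least 50% cover.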

Additional observations from a re-analysis of the deposited data

Results flagged for a closer look

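For 3 of 9 members the difference between Setd2KO and WT was not the same in both cell types, by the test of the difference itself (limma, effect in RS minus effect in PD). Of all genes 35.1% passed this test (7.76% higher, 27.3% lower), so the count is close to the background. The calls of Leo1 and Rtf1 were lost in the alternatives named above. The difference was -1.08 for Paf1, with log2 changes of -1.33 in RS and -0.25 in PD, and all Setd2KO libraries were below the WT libraries of their cell type. It was -0.73 for Leo1, with changes of -0.55 in RS and 0.18 in PD, and -0.54 for Rtf1, with changes of -0.45 in RS and 0.09 in PD. For Leo1 and Rtf1 both Setd2KO libraries were below WT in RS (37.7% of all genes) and above WT in PD (56.6%). Their changes in PD did not pass and lay below the median of all genes of 0.19 (-0.01 and -0.10 relative). Both turned negative with centring on medians, so opposite directions in the 2 cell types are not shown.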

How the results depend on the processing

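The calls on Supt6, Supt16, Ssrp1, Paf1, Rtf1 and Cdc73 between WT cell types and on Paf1 between genotypes in RS held wherever tested, and the calls that were lost are named above. Members called in PD numbered 0 with a 5 FPKM filter (Cdc73 untested), 2 with upper-quartile scaling, and 0 to 1 with a library left out. With a library left out they numbered 1 to 5 in RS and 1 to 4 for the effect in RS minus that in PD. The RS count was 2 without RS WT replicate 2 and 1 without RS Setd2KO replicate 1, and the difference count was 1 without PD Setd2KO replicate 2 or RS Setd2KO replicate 1. With the 5 FPKM filter, which tested fewer genes, all genes called numbered 2566 in PD, 2998 in RS, 6262 and 6189 between cell types in WT and Setd2KO, and 2452 for the difference. With a library left out they ranged from 2537 to 4575 in PD and from 2949 to 5719 in RS. No member kept cover in RS Setd2KO with a score of at least 100 (0) or at least 50% cover (0).

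Changes of sign were all in values that did not pass, and the cause was not tested. In PD with upper-quartile scaling, quantile normalization and centring, in that order, the log2 change was -0.062, -0.14 and -0.16 for Iws1, -0.10, -0.081 and -0.20 for Ctr9, and -0.014, -0.15 and -0.13 for Rtf1. Ssrp1 was at -0.027 with upper-quartile scaling and -0.12 with centring, where Supt6 was at -0.072, Leo1 at -0.045 and Supt16 at -0.059. Ctr9 was at -0.00744 with spermatid RNA subtracted. Paf1 between cell types in Setd2KO was at 0.040 with quantile normalization and 0.19 with centring. For the effect in RS minus that in PD, Supt16 was at 0.089, 0.027 and 0.19 under the 3 scalings and Supt6 at 0.060 with centring. With a library left out, Ctr9 ranged from -0.16 to 0.22 and Ssrp1 from -0.00538 to 0.22 in PD, Supt16 from -0.12 to 0.28 and Supt6 from -0.17 to 0.057 in RS, and for the difference Ssrp1 from -0.033 to 0.19 and Supt16 from -0.28 to 0.11.

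The labels' replicate numbers do not say what same-numbered libraries share, and deviations of same-numbered libraries had correlations of -0.31 to 0.07, so no pairing was assumed. With a replicate block, 3894 genes and 1 member were called in PD, 4695 and 4 in RS, 9458 and 6 between cell types in WT, 9453 and 6 in Setd2KO, and 3822 and 3 for the difference, and no member's call changed. With 2 libraries per group, the recovery in simulated data was 32% for a log2 change of 0.5, where 200 of 11452 genes were changed. In the RS comparison itself 42.7% of all genes were called. The simulated recovery therefore does not tell how often changes of that size in the members would pass.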
